A study of Mus musculus with 21 samples.

Results

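Solute carrier (Slc) genes encode the membrane transporters that move sugars, lactate, amino acids, nucleosides, metals, ions and vitamins across the plasma membrane and across the membranes of organelles. T cells that are activated and start to divide raise the uptake of glucose and amino acids and export lactate, and transforming growth factor beta (TGFB), a cytokine that restrains T cell growth and favours regulatory T cells, acts on cells in that state. On the array used here, 316 genes out of the 14860 genes tested had a symbol that starts with Slc, a family number and a letter, and a transcript cluster annotated to that symbol alone. Of these, 138 had a mean level above that of the median gene. They were sorted into 16 groups by the substrate each carrier is known for. The list was defined by name and not by any measured value. No gene was left out for a low level. The list takes in Slc7a6os, a gene on the opposite strand of a carrier that is not itself a transporter.

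Levels were measured on 21 Affymetrix mouse exon arrays, with 1 array for each sample of cultured spleen cells from Marilyn mice, whose CD4 T cells carry a transgenic receptor for a male antigen. In the Foxp3hCD2 mice, cells that express Foxp3, the transcription factor of regulatory T cells, are marked by human CD2 (hCD2) on their surface. The groups were activated reporter cells given TGFB and sorted as CD4+hCD2+ (5 arrays), TGFB-treated reporter cells sorted as CD4+hCD2- (5 arrays), activated reporter cells without TGFB, called untreated (5 arrays), activated Foxp3-/- knockout cells given TGFB (3 arrays), and activated knockout cells without TGFB (3 arrays). For the last 3 groups the cell type is given as CD4+CD2, without the species of that CD2, and ages and individual animals are not given in the labels. Samples are called biological replicates without a word on whether they came from separate animals or cultures, and p-values speak only to the spread from sample to sample. The TGFB-treated knockout cells are labelled as lacking Foxp3. All groups share the Marilyn receptor and activation.

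Per the labels there were 2 studies. Study 1 holds replicates 1 to 3 of each reporter group, and study 2 holds the remaining reporter arrays and the knockout. The cluster that Foxp3 shares with the non-coding RNA gene Flicr had a level of 9.23 to 11.68 (log2) in hCD2-positive cells, 6.35 to 7.08 in hCD2-negative cells and 5.95 to 6.54 in untreated reporter cells. In the arrays labelled Foxp3-/- the same cluster had 8.26 to 8.90 with TGFB, against 6.80 to 7.17 without it. The files do not say whether its probes lie in the disrupted part of the gene, so that it does not check the knockout label. All 6 of the T cell marker genes measured lay above the median of an array on at least 1 array, and 1 of them, Cd5, was called, higher in hCD2-positive cells. Markers of macrophages and dendritic cells (4 of 4 measured), granulocytes (3 of 4), NK cells (1 of 1), erythroid cells (2 of 3) and B cells (2 of 5) lay below the median of every array, and no gene of these lists was called in any comparison. In bulk samples such as these, fewer cells of a type and less RNA per cell cannot be told apart.

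The deposited arrays differ in their spread. Interquartile ranges over all clusters were 2.01 on hCD2-positive replicate 3 and 2.33, 2.23 and 2.47 on hCD2-negative replicates 1, 3 and 4, against 2.70 to 3.14 on the other reporter arrays. All 4 are TGFB arrays. Knockout arrays had 2.33 (TGFB replicate 1), 2.41 and 2.38 (untreated replicates 1 and 2) and 2.56 to 2.94 on the rest, and all were kept. The lower quartiles of the 4 narrow reporter arrays were 4.93 to 4.96, against 4.94 to 5.02 on the other reporter arrays, and their upper quartiles, at 6.96, 7.29, 7.16 and 7.40, lay below all others. How far this shapes the results was not tested as such, and each result is given on the deposited scale and, where it matters, after quantile normalization, which gives all arrays 1 distribution, and without these 4 arrays. Quantile normalization moved the median log2 fold change over all genes by 0.10 in hCD2-positive and by 0.14 in hCD2-negative cells. Lower quartiles were 4.93 to 5.02 on reporter arrays and 5.61 to 5.68 on knockout arrays, so that levels in reporter and knockout cells are given side by side and were not tested against each other.

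In TGFB-treated reporter cells, the transporters that bring in glucose (Slc2a3, Slc2a1), let out lactate (Slc16a3) and bring in large neutral, cationic and other amino acids (Slc7a5, Slc3a2, Slc7a1) were lower than in untreated cells, by 2.48-fold to 5.71-fold, in both sorted fractions. A few carriers were higher, led by Slc43a1 and Slc44a1. At an adjusted p under 0.05 in the limma fit, hCD2-positive cells had 7 transporter genes above and 36 below their level in untreated reporter cells, which is 13.6% of the 316, against 11.6% of all genes tested (1.94% higher and 9.66% lower). In hCD2-negative cells 7 were higher and 52 lower, 18.7%, against 18.9% of all genes (2.05% higher and 16.9% lower). The share of transporter genes called was thus close to that of all genes, and so was the share of their calls that were lower, 83.7% against 83.2% in hCD2-positive and 88.1% against 89.2% in hCD2-negative cells. Both comparisons use the same 5 untreated arrays. Of the 43 calls in hCD2-positive cells, 93.0% were also calls in hCD2-negative cells, and of the 59 calls in hCD2-negative cells 67.8% were also calls in hCD2-positive cells. All 43 and all 59 had the same direction in study 1 and in study 2 taken alone. These calls were picked in a fit that pools both studies, so that this agreement was largely fixed in advance and is no replication.

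The split into higher and lower depended on the scaling. After quantile normalization, hCD2-positive cells had 37 transporter genes higher and 33 lower (8.39% and 9.36% of all genes), and hCD2-negative cells 47 higher and 36 lower (11.3% and 11.6% of all genes). Of the 36 lower calls in hCD2-positive cells 33 remained lower and called, and of the 52 in hCD2-negative cells 36 did. All 7 higher calls of each fraction remained. Without the 4 narrow arrays, 12 were higher and 32 lower in hCD2-positive cells (31 of the lower calls shared with the full set; 3.20% and 7.47% of all genes) and 12 higher and 19 lower in hCD2-negative cells (all 19 shared; 1.99% and 4.81% of all genes). With arrays centred on their medians, 20 were higher and 31 lower in hCD2-positive cells (4.54% and 7.71% of all genes). On that scale 68 were higher and 45 lower in hCD2-negative cells (10.8% and 12.5% of all genes), so that most calls were higher there. With the replicate number as a block, hCD2-negative cells had 17 higher and 57 lower (2.91% and 19.9% of all genes). Among the genes described below, the calls in hCD2-negative cells of Slc2a8, Slc6a20b, Slc7a1, Slc7a3, Slc1a5, Slc25a1, Slc25a3, Slc25a13, Slc25a37, Slc39a6, Slc39a7, Slc30a9, Slc19a2, Slc41a2 and Slc35d1 were lost without these arrays, and so were those of Slc39a8 and Slc6a20b in hCD2-positive cells and that of Slc7a3 in the knockout. The arrays did not overlap for 4 higher and 25 lower transporter genes in hCD2-positive cells (0.875% and 6.46% of all genes, 7.34% in all) and for 9 higher and 30 lower in hCD2-negative cells (1.10% and 9.04% of all genes, 10.1% in all).

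**Figure D1:**
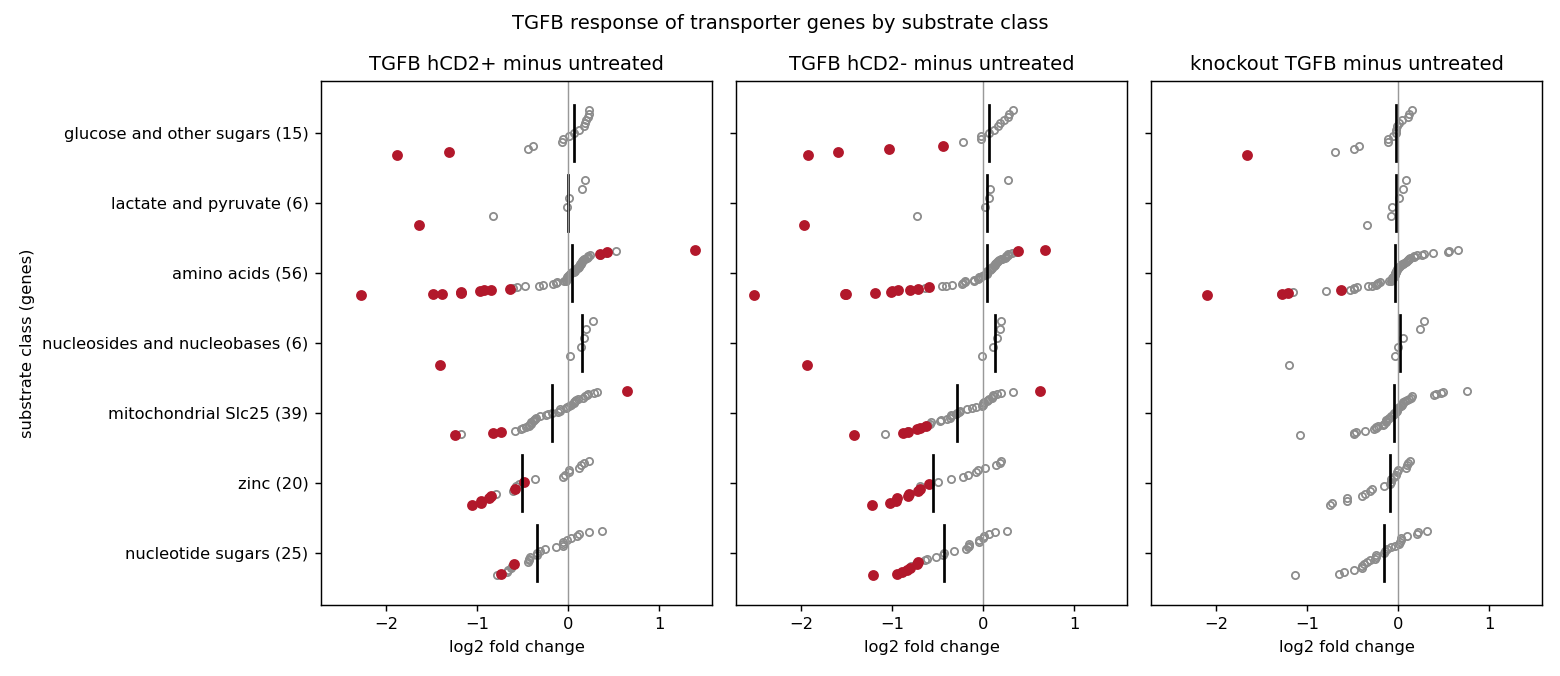
Log2 fold change (x axis) of each transporter gene in 7 substrate groups (y axis, number of genes in brackets) with TGFB in hCD2+ reporter cells, hCD2- reporter cells and knockout cells, each minus untreated cells of the same genotype. Filled red points passed an adjusted p of 0.05, open points did not, and the black bar is the median of the group; among glucose, lactate, amino acid and nucleoside carriers a few genes lie far to the left of a median near 0, while the medians of Slc25, nucleotide sugar and zinc carriers lie at -0.18, -0.34 and -0.51 in hCD2+ cells.

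Among 15 carriers of glucose and other sugars, 2 were lower in hCD2-positive cells (Slc2a3 and Slc2a1) and 4 in hCD2-negative cells (these and Slc2a6 and Slc2a8). That is 13.3% and 26.7%, against 11.6% and 18.9% of all genes called. None was higher in either, while after quantile normalization 1 and 2 were higher. The median over the group was 0.06 and 0.07. Among the 5 sugar carriers whose mean level lay above that of the median gene it was -0.44 and -1.03, with 2 and 4 of the 5 called lower, against -0.28 and -0.38 over all genes of that level. Slc2a3 encodes the glucose transporter GLUT3, which has a high affinity for glucose. Its level was 9.27, 9.06, 7.68, 9.17 and 8.84 in hCD2-positive cells and 8.79, 9.20, 8.26, 8.61 and 8.96 in hCD2-negative cells, against 10.78, 10.56, 10.70, 10.02 and 11.35 in untreated reporter cells. Every TGFB array lay below every untreated one. The log2 fold change was -1.88 ± 0.33 (SE) in hCD2-positive cells (adjusted p = 0.000913) and -1.92 ± 0.33 in hCD2-negative cells (adjusted p = 0.000513), or 3.68-fold and 3.78-fold lower. Within studies the hCD2-positive value was -2.01 in study 1 and -1.68 in study 2. In the knockout the gene had 9.32, 9.59 and 9.49 in knockout cells with TGFB, against 10.26, 11.06 and 12.07 in untreated knockout cells, and these arrays did not overlap either.

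Slc2a1 encodes GLUT1, the carrier of basal glucose uptake that activated T cells raise. It had 9.43, 8.79, 7.65, 9.91 and 9.74 in hCD2-positive cells and 8.40, 8.69, 8.28, 9.34 and 9.42 in hCD2-negative cells, against 10.22, 9.76, 10.52, 10.80 and 10.78 in untreated reporter cells. In hCD2-negative cells no array reached the untreated range, and in hCD2-positive cells replicate 4, at 9.91, exceeded the lowest untreated array, at 9.76. The log2 fold change was -1.31 ± 0.30 (adjusted p = 0.00644) in hCD2-positive and -1.59 ± 0.30 (adjusted p = 0.000998) in hCD2-negative cells. Knockout arrays of Slc2a1 overlapped, with 10.20, 10.61 and 10.83 in knockout cells with TGFB, against 10.66, 10.46 and 11.97 in untreated knockout cells, and the log2 fold change of -0.48 ± 0.38 did not pass the test (adjusted p = 0.815, 95% interval -1.29 to 0.32). Slc2a6, a carrier of lysosomal membranes, had a log2 fold change of -1.03 in hCD2-negative cells (adjusted p = 0.00184) and -0.39 in hCD2-positive cells (adjusted p = 0.251). After quantile normalization Slc2a6 in hCD2-negative cells was -0.55 (adjusted p = 0.0724), no longer a call, and Slc2a8, a carrier of inner membranes, had -0.44 (adjusted p = 0.0409) on the deposited scale and -0.14 (adjusted p = 0.362) after it. With the replicate block Slc2a8 also passed in hCD2-positive cells, at -0.44 (adjusted p = 0.0464, against 0.0554 without the block). The call of Slc2a8 in hCD2-negative cells was lost on leaving out any 1 of 11 of the 21 arrays, which were hCD2-negative replicates 1, 3, 4 and 5, untreated replicates 1 to 4, hCD2-positive replicates 4 and 5 and knockout TGFB replicate 3. Slc50a1, a sugar carrier, had 0.00 and -0.22, and its intervals of -0.47 to 0.48 and -0.69 to 0.25 do not reach a 2-fold change.

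The 250 bases before the start of a gene were read for 247 of the 316 genes from a table of RefSeq promoters on build GRCm38.p6, which is not the build named for the arrays. Sequences are shown for carriers of the main routes, because such promoters are where hypoxia, growth and amino acid signals are known to act on transporter genes. The motifs searched on both strands were CACGTG (the E-box bound by Myc and related factors), ACGTG (the core of the hypoxia response element, which CACGTG also contains) and TGATGNAA (the core of the amino acid response element). Of the 32851 promoters searched, 6.02% held CACGTG, 16.6% held ACGTG and 3.45% held TGATGNAA. Of 322 promoters of the transporter genes, 11.2%, 21.7% and 2.80% did. Of the 48 promoters of 35 genes that were lower in hCD2-negative cells, 5, 14 and 0 did (10.4%, 29.2% and 0%). Of the 8 promoters of 6 genes that were higher there, 2, 3 and 0 did (25% and 37.5% for the first pair). Matches are in capitals, and are a description of the letters alone. Slc2a1 had 1 ACGTG and Slc16a3 had 2. Slc16a1 had 1 CACGTG, which reads ACGTG on both strands.
Slc2a1, chr4:119108495-119108744, plus strand: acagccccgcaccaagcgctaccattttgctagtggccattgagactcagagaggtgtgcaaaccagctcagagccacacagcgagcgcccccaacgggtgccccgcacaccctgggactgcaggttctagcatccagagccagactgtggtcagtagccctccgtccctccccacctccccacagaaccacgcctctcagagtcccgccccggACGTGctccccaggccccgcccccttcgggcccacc
Slc16a3, chr11:120948817-120949066, plus strand: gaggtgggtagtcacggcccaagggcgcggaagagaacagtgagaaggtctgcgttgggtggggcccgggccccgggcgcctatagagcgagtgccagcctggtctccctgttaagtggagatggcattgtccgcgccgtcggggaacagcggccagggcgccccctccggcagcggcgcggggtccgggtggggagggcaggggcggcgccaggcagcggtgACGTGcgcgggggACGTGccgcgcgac
Slc16a1, chr3:104638414-104638663, plus strand: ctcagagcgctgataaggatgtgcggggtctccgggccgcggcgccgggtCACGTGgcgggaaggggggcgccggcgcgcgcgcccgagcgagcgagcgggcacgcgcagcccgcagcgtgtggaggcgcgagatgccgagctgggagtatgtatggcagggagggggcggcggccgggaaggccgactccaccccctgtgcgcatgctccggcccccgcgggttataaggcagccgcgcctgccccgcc

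Lactate leaves cells through the monocarboxylate transporters, of which Slc16a1 encodes MCT1, which carries lactate both ways, and Slc16a3 encodes MCT4, the exporter of cells with high glycolysis. Of 6 lactate and pyruvate carriers, 1 was called in each fraction (16.7%, against 11.6% and 18.9% of all genes). This was Slc16a3, which was lower. It had 7.83, 7.29, 6.63, 8.05 and 7.47 in hCD2-positive cells and 6.60, 7.26, 6.76, 7.39 and 7.63 in hCD2-negative cells, against 9.17, 8.62, 9.69, 8.97 and 9.01 in untreated reporter cells. No TGFB array of the reporter cells reached the lowest untreated array, at 8.62. The log2 fold change was -1.64 ± 0.31 (adjusted p = 0.00189, 3.11-fold lower) and -1.96 ± 0.31 (adjusted p = 0.000263, 3.90-fold lower), and within studies the hCD2-negative value was -2.29 in study 1 and -1.48 in study 2. The knockout arrays overlapped, with 8.26, 8.66 and 8.98 in knockout cells with TGFB, against 8.23, 8.66 and 10.05 in untreated knockout cells. The knockout log2 fold change of -0.35 ± 0.40 did not pass the test (adjusted p = 0.934, 95% interval -1.20 to 0.50), and without knockout untreated replicate 3 it was 0.19. The difference between the responses, hCD2-negative minus knockout, was -1.62 ± 0.51 with an interval of -2.69 to -0.54 and did not pass adjustment over all genes either (adjusted p = 0.852), so that a different response is not shown.

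Slc16a1 had 8.15, 7.13, 6.26, 7.54 and 7.62 in hCD2-positive cells and 7.41, 8.22, 7.07, 6.95 and 7.53 in hCD2-negative cells, against 8.53, 7.96, 8.47, 8.21 and 7.66 in untreated reporter cells. The groups overlapped, and the log2 fold changes of -0.83 ± 0.30 (adjusted p = 0.0866) and -0.73 ± 0.30 (adjusted p = 0.0974) did not pass the test. The remaining lactate and pyruvate carriers (Slc16a7, Slc16a8, Slc5a8 and Slc5a12) had log2 fold changes between -0.01 and 0.28 in the 2 fractions, with no call. The chains that accompany these carriers to the cell surface moved in opposite directions. Bsg, which encodes basigin, the partner of MCT1 and MCT4, was lower, at 9.63 ± 0.98 (SD, n = 5) and 9.40 ± 0.89 in hCD2-positive and hCD2-negative cells, against 10.73 ± 0.58 in untreated cells, with log2 fold changes of -1.10 ± 0.25 and -1.33 ± 0.25 (adjusted p = 0.00692 and 0.00107). Emb, which encodes embigin, the usual partner of MCT2, was higher, with 1.07 ± 0.22 and 1.15 ± 0.22 (adjusted p = 0.00293 and 0.00106) and with 1.72 ± 0.28 in the knockout (adjusted p = 0.00152).

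Of 13 genes listed as partners of glucose, lactate and amino acid transport, 9 were measured. In hCD2-positive cells 1 was higher and 4 lower, and in hCD2-negative cells 1 was higher and 5 lower, against 11.6% and 18.9% of all genes called. The list was chosen with earlier results of these data known, so that these counts give no test of it. Hk2, the hexokinase that traps glucose after uptake, had log2 fold changes of -2.24 ± 0.24 (adjusted p = 7.37e-06) and -2.35 ± 0.24 (adjusted p = 3.09e-06). Asns, asparagine synthetase, had -2.96 ± 0.30 and -3.02 ± 0.30 (adjusted p = 3.81e-06 and 2.36e-06) and fell in the knockout too (-2.37 ± 0.39, adjusted p = 0.00172). Txnip and Arrdc4, arrestins that take glucose transporters off the cell surface, had log2 fold changes of 0.07 ± 0.21 and 0.02 ± 0.18 in hCD2-positive and 0.11 ± 0.21 and 0.07 ± 0.18 in hCD2-negative cells, with no call.

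Amino acid carriers, the largest group, had the most calls, 3 higher and 9 lower of 56 in hCD2-positive cells (21.4%, against 11.6% of all genes). In hCD2-negative cells 2 were higher and 10 lower (21.4%, close to the 18.9% of all genes). Without the narrow arrays the counts were 4 higher and 9 lower (23.2%, against 10.7% of all genes), and 4 higher and 6 lower (17.9%, against 6.80%). The higher ones were Slc43a1, Slc6a20b and, in hCD2-positive cells, Slc6a19, with a log2 fold change of 0.43 (adjusted p = 0.0144). Slc6a20b had 0.35 and 0.38, and its calls were lost without hCD2-positive replicate 1, 2 or 3, untreated replicate 1, 2, 3 or 4 or knockout TGFB replicate 3 in the first, and without hCD2-negative replicate 3 or 4 or untreated replicate 1 or 3 in the second. With the replicate block Slc6a20b missed the threshold in hCD2-positive cells (adjusted p = 0.0535), and Slc6a19 passed it in hCD2-negative cells, at 0.31 (adjusted p = 0.0414). Slc6a20b is among the genes of low level that the filter on dim genes leaves out. The median log2 fold change was 0.04 in both fractions. Over the 18 amino acid carriers above the level of the median gene it was -0.23 and -0.32, against -0.28 and -0.38 over all genes of that level. Slc7a5 encodes LAT1, which takes up leucine and other large neutral amino acids and pairs with the CD98 heavy chain, the product of Slc3a2. It had 8.46, 7.76, 7.22, 8.82 and 8.72 in hCD2-positive cells and 7.50, 8.02, 7.46, 8.21 and 8.60 in hCD2-negative cells, against 10.50, 10.25, 10.70, 11.49 and 9.42 in untreated reporter cells. All 10 TGFB arrays lay below the lowest untreated array, at 9.42. Slc7a5 had the lowest log2 fold change of all 316 genes in each fraction, -2.28 ± 0.33 (4.84-fold lower, adjusted p = 0.000164) and -2.51 ± 0.33 (5.71-fold lower, adjusted p = 3.63e-05). In the knockout Slc7a5 had 9.30, 9.51 and 8.93 in knockout cells with TGFB, against 11.24, 10.86 and 11.94 in untreated knockout cells, and was 4.29-fold lower (log2 -2.10 ± 0.42, adjusted p = 0.00906). That call was lost without knockout TGFB replicate 3 or without knockout untreated replicate 3.

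Slc3a2 had 9.12, 9.43, 7.75, 9.84 and 9.76 in hCD2-positive cells and 8.75, 9.48, 8.21, 9.53 and 9.74 in hCD2-negative cells, against 10.59, 10.22, 10.58, 11.62 and 10.30 in untreated reporter cells. The groups did not overlap, and the log2 fold changes were -1.48 ± 0.31 (adjusted p = 0.00374) and -1.52 ± 0.31 (adjusted p = 0.00213). Knockout arrays of Slc3a2 had 10.25, 10.50 and 10.43 with TGFB, all below the untreated values of 11.25, 11.24 and 12.15, yet the log2 fold change of -1.15 ± 0.40 did not pass the test (adjusted p = 0.176). Slc7a11, which encodes the cystine carrier xCT and shares the CD98 heavy chain, had 4.89 ± 0.25, 4.86 ± 0.10 and 5.06 ± 0.44 (SD, n = 5 each) in hCD2-positive, hCD2-negative and untreated cells. Its log2 fold changes of -0.17 (interval -0.54 to 0.21) and -0.20 (-0.58 to 0.17) did not pass the test. The promoter of Slc3a2 had 1 ACGTG, on the strand opposite to the one printed, and that of Slc7a11 had 2 TGATGNAA on opposite strands, shown here because the amino acid response element is known from such genes.
Slc3a2, chr19:8713898-8714147, minus strand: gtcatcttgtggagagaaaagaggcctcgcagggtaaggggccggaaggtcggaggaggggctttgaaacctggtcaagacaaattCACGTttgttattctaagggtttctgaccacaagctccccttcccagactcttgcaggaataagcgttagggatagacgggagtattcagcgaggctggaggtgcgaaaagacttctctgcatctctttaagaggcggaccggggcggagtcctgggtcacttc
Slc7a11, chr3:50443614-50443863, minus strand: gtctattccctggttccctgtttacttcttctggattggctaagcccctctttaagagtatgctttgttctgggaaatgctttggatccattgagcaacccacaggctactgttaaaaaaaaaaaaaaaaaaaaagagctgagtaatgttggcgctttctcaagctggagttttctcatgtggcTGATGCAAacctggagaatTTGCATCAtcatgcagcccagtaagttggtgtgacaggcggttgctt

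Slc7a1 and Slc7a3 encode CAT1 and CAT3, carriers of arginine and lysine. Slc7a1 had 7.64, 7.41, 6.67, 8.12 and 7.98 in hCD2-positive cells and 7.01, 7.69, 6.69, 7.75 and 8.10 in hCD2-negative cells, against 9.03, 8.70, 9.18, 9.68 and 8.17 in untreated reporter cells. Its TGFB arrays all lay below the lowest untreated value, and the log2 fold changes were -1.39 ± 0.29 (adjusted p = 0.00352) and -1.5 ± 0.29 (adjusted p = 0.00128). Without the narrow arrays Slc7a1 stayed a call in hCD2-positive cells and missed the threshold in hCD2-negative cells, at -1.08 (adjusted p = 0.0696). Slc7a3 was lower in both fractions (-0.93 and -0.93, adjusted p = 0.0151 and 0.0107) and in the knockout (-1.21, adjusted p = 0.0395). Its mean level is low, among the genes that the alternative with a filter on dim genes leaves out.

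Slc16a10 encodes TAT1, a carrier of aromatic amino acids. It had 5.47, 5.37, 5.46, 5.40 and 5.70 in hCD2-positive cells and 5.61, 5.51, 5.57, 5.63 and 5.97 in hCD2-negative cells, against 6.76, 6.57, 6.19, 6.96 and 6.79 in untreated reporter cells. No TGFB reporter array reached the lowest untreated array, at 6.19. Slc16a10 had the smallest adjusted p of the lower genes, 4.85e-06 and 1.76e-05, with log2 fold changes of -1.17 ± 0.12 and -1.0 ± 0.12. It also passed within each study alone (-1.07 in study 1 and -1.32 in study 2 in hCD2-positive cells). Slc6a9, the glycine carrier GlyT1, was lower, with log2 fold changes of -1.17, -1.19 and, in the knockout, -1.27 (adjusted p = 0.00301, 0.00182 and 0.0292). Slc1a4, the carrier ASCT1 of alanine and serine, had -0.84 and -0.72 (adjusted p = 0.00546 and 0.0116).

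Slc1a5 encodes ASCT2, a main route of glutamine into activated T cells. It had 9.51, 9.19, 7.98, 9.78 and 10.17 in hCD2-positive cells and 8.72, 9.42, 8.46, 9.63 and 10.20 in hCD2-negative cells, against 10.30, 9.76, 10.17, 10.82 and 10.41 in untreated reporter cells. Here the groups overlapped, since 2 hCD2-positive arrays, at 9.78 and 10.17, and 1 hCD2-negative array, at 10.20, exceeded the lowest untreated array, at 9.76. The log2 fold changes of -0.97 ± 0.28 (adjusted p = 0.0305) and -1.01 ± 0.28 (adjusted p = 0.0172) passed the test. The call in hCD2-positive cells was lost without hCD2-positive replicate 3 or 4 or without untreated replicate 1, 3 or 4, and that in hCD2-negative cells without hCD2-negative replicate 3 or 4 or without untreated replicate 1. Without the narrow arrays the value in hCD2-negative cells was -0.54 (adjusted p = 0.293). Slc38a1 and Slc38a2, further glutamine carriers (SNAT1 and SNAT2), had -0.56 and -0.48 in hCD2-positive and -0.41 and -0.63 in hCD2-negative cells, with adjusted p of 0.0674 or more. With the replicate block Slc38a2 passed in hCD2-negative cells (adjusted p = 0.0479).

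**Figure D2:**
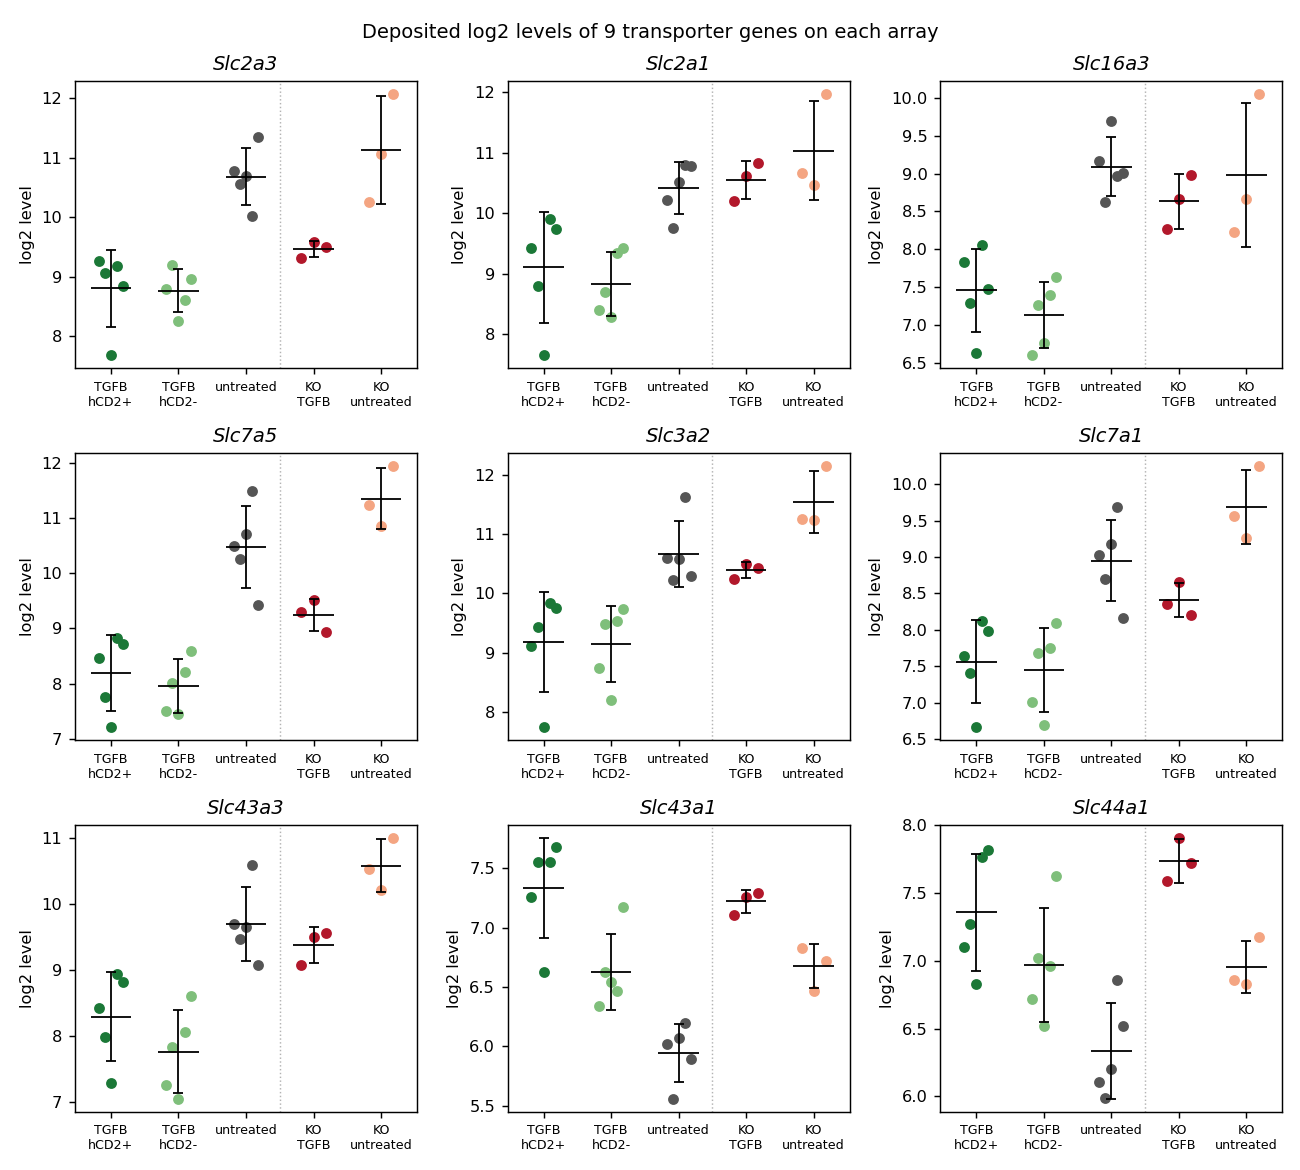
Deposited log2 level (y axis) on each of the 21 arrays for 9 transporter genes, by group (x axis: TGFB hCD2+, TGFB hCD2-, untreated reporter, knockout with TGFB, untreated knockout). Points are arrays, the bar is the group mean with its SD; Slc7a5, Slc2a3 and Slc16a3 show TGFB reporter arrays wholly below the untreated ones, Slc43a1 shows them above, and hCD2+ replicate 3 is often the lowest of its group.

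Slc43a1 went the other way. It encodes LAT3, a carrier of large neutral amino acids that works without the CD98 heavy chain. Its level was 7.26, 7.55, 6.63, 7.55 and 7.68 in hCD2-positive cells and 6.34, 6.63, 6.54, 6.47 and 7.17 in hCD2-negative cells, against 6.02, 5.56, 6.07, 6.20 and 5.89 in untreated reporter cells. Every TGFB array lay above every untreated array, and all but 1 of the hCD2-positive arrays lay above the highest hCD2-negative array, at 7.17. The log2 fold change was 1.39 ± 0.17 in hCD2-positive cells (2.61-fold higher, adjusted p = 2.41e-05), the highest of the 316 genes, and 0.68 ± 0.17 in hCD2-negative cells (1.60-fold, adjusted p = 0.00766). Knockout cells had 7.11, 7.26 and 7.29 with TGFB, all above 6.83, 6.47 and 6.72 without it, a log2 fold change of 0.55 ± 0.21 that did not pass the test (adjusted p = 0.275) on the deposited scale and did after quantile normalization, at 0.68 (adjusted p = 0.0034). Its promoter had 1 CACGTG, and is shown as that of the gene that rose beside those that fell.
Slc43a1, chr2:84840073-84840322, plus strand: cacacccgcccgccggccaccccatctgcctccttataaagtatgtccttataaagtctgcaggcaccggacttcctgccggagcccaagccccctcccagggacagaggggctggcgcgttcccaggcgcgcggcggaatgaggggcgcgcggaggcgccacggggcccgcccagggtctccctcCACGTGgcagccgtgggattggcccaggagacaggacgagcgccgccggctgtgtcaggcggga

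Other amino acid carriers did not pass on the deposited scale but did after quantile normalization. Slc43a2, which encodes the related carrier LAT4, had 0.41 ± 0.26 (adjusted p = 0.331) and, after quantile normalization, 0.73 (adjusted p = 0.000255) in hCD2-positive cells. Slc6a6, the taurine carrier, had 0.52 ± 0.27 (adjusted p = 0.241) and 0.88 (adjusted p = 1.6e-05). In both genes hCD2-positive replicate 3, the narrowest array, was the lowest of its group, at 7.35 and 7.81.

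Nucleoside and nucleobase carriers numbered 6, and 1 of them was called in each fraction (16.7%, against 11.6% and 18.9% of all genes). This was Slc43a3, which encodes a purine nucleobase carrier that feeds the salvage of purines. It had 8.42, 7.99, 7.29, 8.94 and 8.82 in hCD2-positive cells and 7.25, 7.83, 7.05, 8.06 and 8.61 in hCD2-negative cells, against 9.70, 9.46, 9.65, 10.59 and 9.07 in untreated reporter cells. No TGFB reporter array reached the lowest untreated array, at 9.07. The log2 fold change was -1.40 ± 0.27 (adjusted p = 0.00224) and -1.93 ± 0.27 (adjusted p = 7.95e-05). Knockout arrays of Slc43a3 had 9.07, 9.50 and 9.56 with TGFB, all below 10.52, 10.21 and 11 without it, and the log2 fold change of -1.20 ± 0.35 did not pass the test (adjusted p = 0.0876).

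Slc29a1 encodes ENT1, the main equilibrative nucleoside carrier of the plasma membrane. It had 8.44 ± 0.50, 8.26 ± 0.43 and 8.27 ± 0.30 (SD, n = 5 each) in hCD2-positive, hCD2-negative and untreated cells. On the deposited scale its log2 fold changes of 0.17 ± 0.23 and -0.01 ± 0.23 did not pass the test. After quantile normalization they were 0.52 (adjusted p = 0.002) and 0.50 (adjusted p = 0.00227), so that the sign in hCD2-negative cells turned. Slc29a3, a nucleoside carrier of lysosomes, had 0.27 in hCD2-positive cells on the deposited scale, with no call, and 0.58 (adjusted p = 0.0028) after quantile normalization. In hCD2-negative cells it had 0.19, with no call, and 0.61 (adjusted p = 0.00165) after quantile normalization. Slc29a2, which encodes the nucleoside carrier ENT2, had no call on the deposited scale and 0.36 (adjusted p = 0.005) in hCD2-negative cells after quantile normalization. The concentrative carriers Slc28a1 and Slc28a3 had no call on either scale. On the deposited scale the log2 fold changes of Slc28a1, Slc28a3 and Slc29a2 lay between 0.02 and 0.20.

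Mitochondrial carriers of the Slc25 family move nucleotides, phosphate, di- and tricarboxylates and amino acids across the inner membrane. Of 39 members, 1 was higher and 3 were lower in hCD2-positive cells (10.3%, against 11.6% of all genes). In hCD2-negative cells 1 was higher and 6 were lower (17.9%, against 18.9% of all genes). The share called was thus close to that of all genes. Among the 28 above the level of the median gene, 1 was higher and 2 lower in hCD2-positive cells, and 1 higher and 5 lower in hCD2-negative cells. All 7428 genes of that level had 183 higher and 1036 lower, and 146 higher and 1963 lower. The median of the 39 was -0.18 and -0.28 on the deposited scale and 0.02 and 0.07 after quantile normalization. The family thus has no direction that holds across scalings. Slc25a24, which exchanges ATP-magnesium for phosphate and so sets the adenine nucleotides held in the matrix, was the lowest. It had 8.34, 8.44, 7.19, 8.10 and 7.85 in hCD2-positive cells and 7.80, 8.20, 7.47, 7.65 and 7.92 in hCD2-negative cells, against 9.03, 9.42, 9.49, 9.48 and 8.69 in untreated reporter cells. TGFB arrays of the reporter cells lay below all untreated ones, with log2 fold changes of -1.24 ± 0.24 (adjusted p = 0.00219) and -1.41 ± 0.24 (adjusted p = 0.000484), and after quantile normalization it was -0.89 (adjusted p = 1.43e-05) and -0.92 (adjusted p = 7.91e-06). In the knockout 7.94, 8.51 and 8.39 with TGFB lay below 8.95, 9.21 and 9.93 without it, at a log2 fold change of -1.08 ± 0.31 (adjusted p = 0.0788).

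Slc25a4, the adenine nucleotide carrier ANT1, was lower, with log2 fold changes of -0.73 and -0.88 (adjusted p = 0.0147 and 0.0031), and its arrays did not overlap with the untreated ones in either fraction. Slc25a13, the aspartate and glutamate carrier of the malate-aspartate shuttle, was lower, with log2 fold changes of -0.82 and -0.70 (adjusted p = 0.00149 and 0.00373). Slc25a3, the phosphate carrier, Slc25a1, the citrate carrier, and Slc25a37, the iron importer mitoferrin 1, were called lower in hCD2-negative cells, at -0.82, -0.63 and -0.72 (adjusted p = 0.017, 0.0161 and 0.023), and not in hCD2-positive cells. None of these 3 was a call without the narrow arrays, when 3 Slc25 genes were lower and 1 higher in hCD2-positive cells, and 2 lower and 2 higher in hCD2-negative cells. Their calls were also lost without hCD2-negative replicate 1 (all 3), hCD2-negative replicate 3 (Slc25a3 and Slc25a1), hCD2-negative replicate 4 (Slc25a37), untreated replicate 3 (Slc25a1) or untreated replicate 1 (Slc25a37).

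Slc25a27 was the Slc25 member that rose. It encodes a carrier known as uncoupling protein UCP4, described mainly in brain. Its level was 6.97, 6.97, 6.81, 6.78 and 7.24 in hCD2-positive cells and 6.74, 7.24, 6.74, 6.76 and 7.20 in hCD2-negative cells, against 6.14, 6.48, 6.29, 6.25 and 6.40 in untreated reporter cells. Every TGFB array lay above every untreated array by a margin of 0.26 or more, and the log2 fold changes were 0.64 ± 0.12 (adjusted p = 0.00133) and 0.62 ± 0.12 (adjusted p = 0.00112). Knockout arrays were also apart, with 7.0, 7.16 and 7.13 with TGFB, against 6.59, 6.66 and 6.63 without it, and 0.47 ± 0.15 did not pass the test (adjusted p = 0.133).

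Zinc carriers had the largest share of calls in the reporter cells among groups of 10 genes or more. It was 35% in hCD2-positive and 45% in hCD2-negative cells, against 11.6% and 18.9% of all genes. Most zinc carriers, 16 of 20, lay above the level of the median gene, where calls were more frequent. Of these 16, 5 and 7 were lower, against 1036 and 1963 of all 7428 genes of that level. The zinc carriers fall into the Slc39 (ZIP) family, which brings zinc into the cytosol, and the Slc30 (ZnT) family, which removes it. Of 12 Slc39 genes 7 were lower in hCD2-positive and 8 in hCD2-negative cells, and none was higher. Of 8 Slc30 genes 0 and 1 were lower (Slc30a9, at a log2 fold change of -0.71 and an adjusted p of 0.0443). The Slc39 median was -0.56 in hCD2-positive and -0.75 in hCD2-negative cells, and -0.28 and -0.38 after quantile normalization, with 6 lower calls in each and 1 higher in hCD2-positive cells. The call of Slc30a9 was lost on leaving out any 1 of 12 of the 21 arrays, which were hCD2-negative replicates 1, 3 and 4, untreated replicates 1, 3, 4 and 5, hCD2-positive replicates 4 and 5, knockout TGFB replicates 2 and 3 and knockout untreated replicate 2. Over all 20 zinc carriers, leaving out the narrow arrays left 6 of 7 lower calls in hCD2-positive cells and 2 of 9 in hCD2-negative cells. The share called was then 30% and 10%, against 10.7% and 6.80% of all genes. No zinc carrier was called in the knockout, where the median was -0.09 over all 20 and -0.30 over the 12 Slc39 genes, with 11 of the 12 below 0. After quantile normalization 3 Slc39 genes were lower in the knockout, Slc39a7 at -0.67 (adjusted p = 0.00633), Slc39a6 at -0.62 (adjusted p = 0.0138) and Slc39a10 at -0.48 (adjusted p = 0.0158).

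Slc39a6 and Slc39a7, which encode ZIP6 of the plasma membrane and ZIP7 of the endoplasmic reticulum, did not overlap between groups. Slc39a6 had 7.64, 7.64, 6.56, 7.64 and 7.53 in hCD2-positive cells and 7.15, 7.67, 6.91, 7.32 and 7.67 in hCD2-negative cells, against 8.50, 8.08, 8.37, 8.95 and 7.91 in untreated reporter cells. It was lower, with log2 fold changes of -0.96 ± 0.24 and -1.02 ± 0.24 (adjusted p = 0.0135 and 0.00666), and its call in hCD2-positive cells was lost without untreated replicate 4. Slc39a7 was lower, with log2 fold changes of -0.95 and -0.96 (adjusted p = 0.00825 and 0.00574). Slc39a1, whose mean level is among those that the filter on dim genes leaves out, had the lowest zinc values. They were -1.05 ± 0.27 and -1.22 ± 0.27 (adjusted p = 0.0138 and 0.00353). The untreated arrays of Slc39a1 ranged from 4.24 to 6.07 and overlapped with both fractions, and in hCD2-negative cells it was -1.72 in study 1 and -0.47 in study 2. Slc39a8, a carrier of zinc and manganese, was lower, with a log2 fold change of -0.81 in hCD2-negative cells without overlap (adjusted p = 0.000406) and -0.48 in hCD2-positive cells with overlap (adjusted p = 0.0265), a call lost without hCD2-positive replicate 3, 4 or 5 or without untreated replicate 3 or 4.

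Slc35 genes encode carriers of nucleotide sugars into the Golgi and endoplasmic reticulum, where they feed glycosylation. Of 25 genes 2 were lower in hCD2-positive cells (8%) and 7 in hCD2-negative cells (28%), and none was higher. Over all genes 9.66% and 16.9% were lower. Of the 18 Slc35 genes above the level of the median gene 1 and 6 were lower, against 1036 and 1963 of all 7428 genes of that level. After quantile normalization 2 were lower and 2 higher in hCD2-positive cells, and 4 lower and 2 higher in hCD2-negative cells. Without the narrow arrays 1 was lower and 1 higher in hCD2-positive cells, and 1 lower in hCD2-negative cells. Slc35d1, which carries UDP-glucuronic acid and UDP-N-acetylgalactosamine, was the lowest, at -1.21 ± 0.25 in hCD2-negative cells (adjusted p = 0.00267). In hCD2-positive cells it was -0.78 ± 0.25 (adjusted p = 0.0556) and in the knockout -1.14 ± 0.33 (adjusted p = 0.0799).

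Among vitamin, lipid and ion carriers, single genes stood out. Slc19a2 encodes a thiamine carrier. It had 7.47, 7.08, 6.16, 6.76 and 6.94 in hCD2-positive cells and 6.86, 7.16, 6.36, 6.43 and 7.31 in hCD2-negative cells, against 8.72, 8.49, 7.54, 8.80 and 7.55 in untreated reporter cells, with no overlap. It was lower, with log2 fold changes of -1.34 ± 0.28 and -1.40 ± 0.28 (adjusted p = 0.00384 and 0.00192) and -1.69 ± 0.36 in the knockout (adjusted p = 0.0131), where it had 6.90, 7.20 and 7.23 in knockout cells with TGFB, against 8.93, 8.54 and 8.92 in untreated knockout cells. The knockout call was lost without knockout TGFB replicate 1, knockout untreated replicate 1 or knockout untreated replicate 3. Slc41a2, a magnesium carrier, was lower, with log2 fold changes of -1.08 and -1.09 (adjusted p = 0.00942 and 0.00627), also without overlap. Slc37a3 was lower, with log2 fold changes of -0.89, -1.38 and, in the knockout, -1.27 (adjusted p = 0.0111, 0.000246 and 0.0164).

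Slc44a1 encodes a choline carrier, which supplies the synthesis of phosphatidylcholine. It had 7.10, 7.27, 6.83, 7.77 and 7.82 in hCD2-positive cells and 6.72, 7.02, 6.52, 6.96 and 7.63 in hCD2-negative cells, against 6.11, 5.99, 6.20, 6.86 and 6.52 in untreated reporter cells. Of the hCD2-positive arrays 1, at 6.83, lay below the highest untreated array, at 6.86, and 2 hCD2-negative arrays did. Slc44a1 was higher by 1.02 ± 0.14 in hCD2-positive cells (2.03-fold, adjusted p = 7.15e-05) and by 0.63 ± 0.14 in hCD2-negative cells (adjusted p = 0.0031). In the knockout it had 7.59, 7.91 and 7.72 in knockout cells with TGFB, against 6.86, 6.83 and 7.18 in untreated knockout cells, and was higher by 0.78 ± 0.17 (adjusted p = 0.0169). That call was lost without knockout TGFB replicate 2 or 3 or without knockout untreated replicate 1 or 2.

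Slc12a7 encodes the potassium and chloride cotransporter KCC4. It had 8.58, 8.38, 7.20, 8.53 and 9.02 in hCD2-positive cells and 8.24, 8.93, 8.12, 8.52 and 9.30 in hCD2-negative cells, against 7.49, 7.26, 7.30, 7.92 and 8.88 in untreated reporter cells. Untreated replicate 5, at 8.88, overlapped with both TGFB groups. The log2 fold change was 0.57 ± 0.26 (adjusted p = 0.172) in hCD2-positive and 0.85 ± 0.26 (adjusted p = 0.0283) in hCD2-negative cells. In the knockout the gene had 9.14, 9.51 and 9.49 in knockout cells with TGFB, against 7.87, 7.96 and 8.42 in untreated knockout cells, a rise of 1.30 ± 0.33 (adjusted p = 0.0432). Slc49a4, a carrier of lysosomal membranes, was higher in hCD2-positive cells (0.71 ± 0.18, adjusted p = 0.0134), and in hCD2-negative cells 0.39 ± 0.18 did not pass (adjusted p = 0.132). The call of Slc12a7 in hCD2-negative cells was lost without hCD2-negative replicate 1, 2 or 5 or without untreated replicate 1, 2, 3 or 4.

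Counts in further groups are to be read beside the 11.6% and 18.9% of all genes called in hCD2-positive and hCD2-negative cells. Of 36 carriers of bicarbonate, chloride, sulfate and phosphate 1 was lower in hCD2-positive cells (2.78%), and 1 was higher and 2 were lower in hCD2-negative cells (8.33%). Of 23 carriers of organic ions and bile acids 2 were lower in hCD2-positive cells (8.7%), and 1 was higher and 2 were lower in hCD2-negative cells (13%). Of 18 carriers that exchange sodium, protons and calcium 1 was higher in hCD2-positive cells and none was called in hCD2-negative cells. It was Slc9a7, a sodium and proton exchanger of the Golgi, at 0.58 ± 0.16 (adjusted p = 0.0221), and its call was lost without hCD2-positive replicate 2 or 5 or without untreated replicate 1 or 5. Of 39 genes with other or unassigned substrates 1 was higher and 5 were lower in hCD2-positive cells (15.4%) and 7 were lower in hCD2-negative cells (17.9%). Of 5 peptide carriers 1 was lower in hCD2-positive cells, and 1 was higher and 1 lower in hCD2-negative cells.

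A further comparison set the TGFB fractions against each other, hCD2-positive minus hCD2-negative, which asks whether TGFB-treated cells that carry the Foxp3 marker differ in their transporters from those that do not. None of the 316 genes was called (0.155% of all genes were). An unadjusted p under 0.05 was found for 9 of the 316, against 620 of all 14860 genes, which shows no excess. The fit, and the intervals below, did not pair the fractions, although 4 of 5 arrays correlated best with their own number. With the replicate number as a block 0 were called too. Slc43a1 had the smallest adjusted p, 0.14, at a log2 difference of 0.70 ± 0.17 (interval 0.36 to 1.05). After quantile normalization 1 gene was higher and 2 were lower (0.633% and 0.283% of all genes), and the higher one was Slc43a1, at 0.63 (adjusted p = 0.00628). Slc2a6 had a difference of 0.65 ± 0.21 (adjusted p = 0.588). For 3 carriers that fell most, the fractions did not differ beyond the test (adjusted p = 1 each). The difference was 0.24 ± 0.33 in Slc7a5 (interval -0.45 to 0.93), 0.04 ± 0.33 in Slc2a3 (-0.65 to 0.73) and 0.33 ± 0.31 in Slc16a3 (-0.33 to 0.98). The upper ends of these intervals leave room for a difference in favour of hCD2-positive cells of 0.73 or more.

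In Foxp3-/- knockout cells 2 transporter genes were higher and 7 lower with TGFB than without, 2.85% of the 316, against 2.75% of all genes (0.895% higher and 1.85% lower). The higher genes were Slc12a7 and Slc44a1, and the lower ones were Slc7a5, Slc19a2, Slc2a3, Slc6a9, Slc37a3, Slc7a3 and Slc17a6, the last of these known as a glutamate carrier of neurons. All 9 were calls of the same direction in hCD2-negative cells and 8 of them in hCD2-positive cells, the exception being Slc12a7. Slc7a3 and Slc17a6 are among the genes of low level that the filter on dim genes leaves out. The comparison has 3 arrays a side, and single arrays decide its count. The count was lowest, at 1, without knockout TGFB replicate 3 or without knockout untreated replicate 3. It was highest, at 16, without hCD2-positive replicate 3, which enters through the shared estimate of spread. Without knockout TGFB replicate 1 it was 2 and without replicate 2 it was 3. Without hCD2-positive replicate 4 or 5, hCD2-negative replicate 1 or untreated reporter replicate 2 it was 5.

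Some knockout calls were close to the threshold. Those of Slc2a3 (adjusted p = 0.0409), Slc7a3 (0.0395), Slc17a6 (0.0404) and Slc12a7 (0.0432) were lost on leaving out any 1 of 13, 12, 12 and 14 of the 21 arrays. Those arrays include all 3 knockout TGFB arrays and knockout untreated replicate 3 for each of these genes, and hCD2-positive replicates 4 and 5, hCD2-negative replicates 1 and 5 and untreated reporter replicate 2. The further ones were hCD2-negative replicate 4, untreated reporter replicates 1 and 3 and knockout untreated replicate 2 for Slc2a3, and hCD2-negative replicates 3 and 4 and knockout untreated replicate 1 for Slc7a3. For Slc17a6 they were hCD2-positive replicate 1, hCD2-negative replicate 3 and knockout untreated replicate 2, and for Slc12a7 hCD2-negative replicate 3, untreated reporter replicates 1 and 3 and knockout untreated replicates 1 and 2. The call of Slc6a9 was lost without any knockout TGFB replicate or knockout untreated replicate 3, and that of Slc37a3 without knockout TGFB replicate 1 or 3 or knockout untreated replicate 3. After quantile normalization all 9 knockout calls remained, among 21 higher and 22 lower (5.77% and 5.07% of all genes). Without the narrow reporter arrays 6 were higher and 13 lower (1.80% and 2.99% of all genes), with arrays centred on their medians 6 and 11 (1.93% and 2.41%), and with the replicate block 6 and 9 (1.29% and 2.18%). Knockout arrays with and without TGFB did not overlap for 24 higher and 38 lower transporter genes, against 5.26% and 11.1% of all genes, 16.4% in all.

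**Figure D3:**
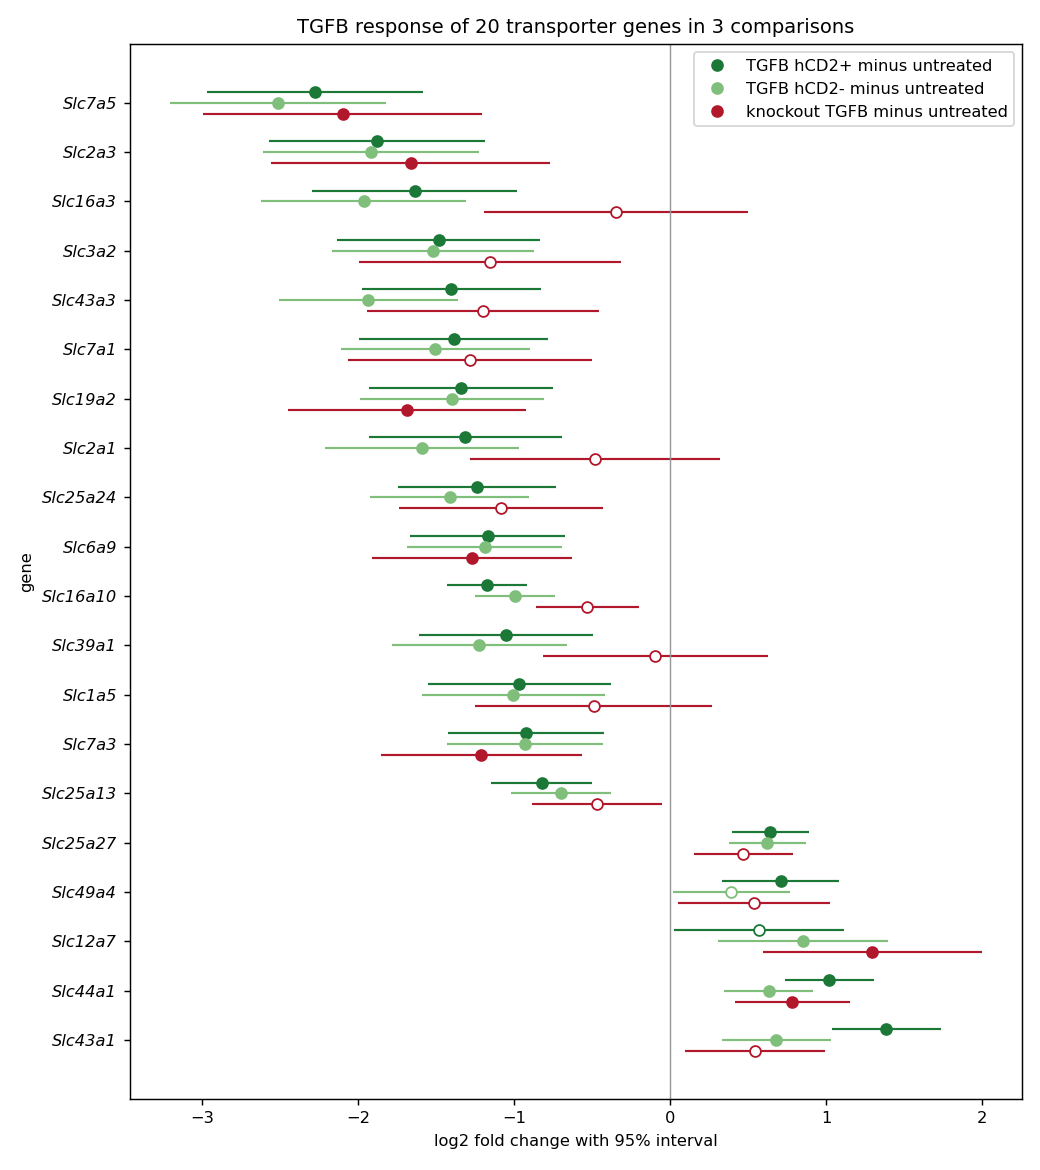
Log2 fold change with TGFB (x axis, with its 95% interval) for 20 transporter genes (y axis) in hCD2+ reporter cells, hCD2- reporter cells and knockout cells, each against untreated cells of its genotype. Filled points passed an adjusted p of 0.05 and open points did not; Slc7a5, Slc2a3, Slc19a2, Slc6a9, Slc7a3 and Slc44a1 are filled in all 3, while the knockout intervals of Slc16a3, Slc2a1, Slc39a1 and Slc1a5 include 0.

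Whether reporter cells respond to TGFB differently from knockout cells was tested as the difference between the responses. No transporter gene was called for hCD2-positive (0.00% of all genes) or for hCD2-negative cells (0.00673% of all genes). An unadjusted p under 0.05 was found for 8 and 11 of the 316, against 375 and 550 of all 14860 genes, which shows no excess. Slc16a3 (-1.29 ± 0.51 and -1.62 ± 0.51) and Slc2a1 (-0.83 ± 0.48 and -1.11 ± 0.48) had these differences on the log2 scale in hCD2-positive and hCD2-negative cells and Slc43a1 had 0.84 ± 0.27 in hCD2-positive cells (adjusted p = 0.998). Knockout groups had 3 arrays, and a call in one genotype and not in the other does not show that they differ. In 21 of the 316 genes the TGFB arrays lay wholly on 1 side of the untreated arrays in hCD2-positive, hCD2-negative and knockout cells alike, 19 of them lower and 2 higher, against 3.67% of all genes lower and 0.249% higher. The lower ones include Slc7a5, Slc3a2, Slc7a1, Slc2a3, Slc43a3, Slc19a2, Slc25a24 and Slc39a7, and the higher ones were Slc43a1 and Slc25a27.

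**Figure D4:**
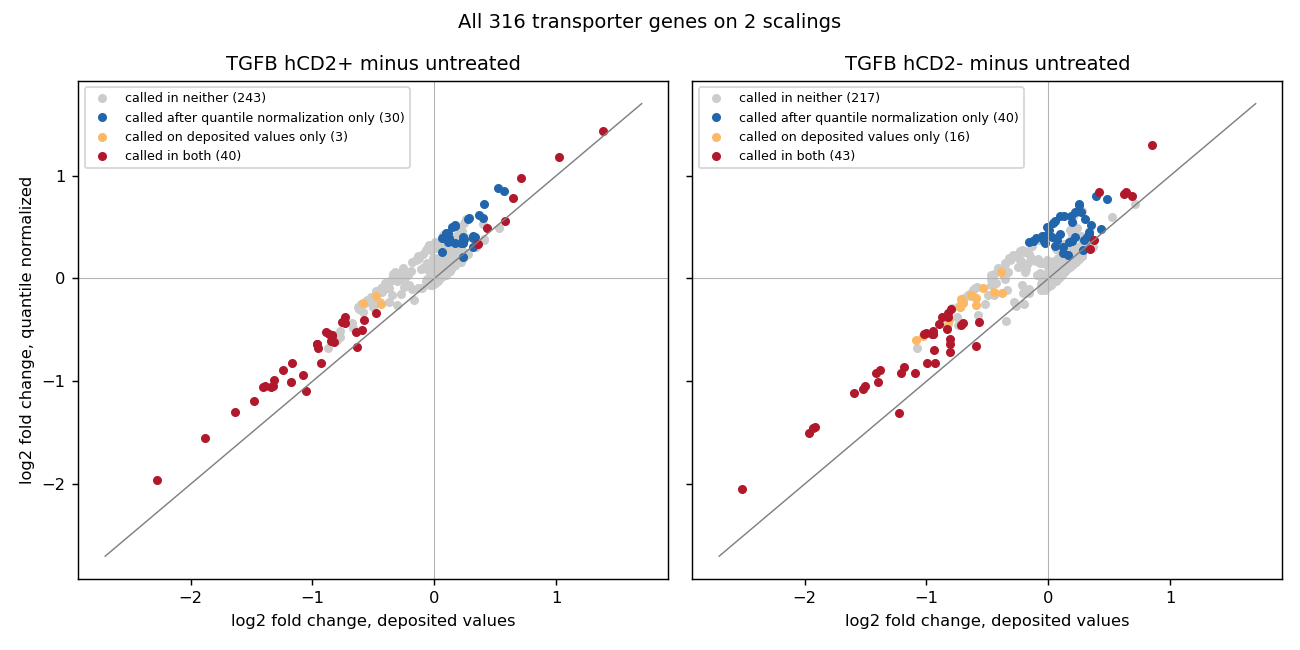
Log2 fold change of all 316 transporter genes on the deposited values (x axis) and after quantile normalization (y axis), for hCD2+ (left) and hCD2- (right) TGFB cells minus untreated reporter cells. Colours give in which of the 2 the gene was called, the diagonal marks equal values, and most points lie above it; the genes called lower on both scales, 33 and 36, form the lower left.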

How the data were processed

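RNA of 21 samples was hybridised to Affymetrix mouse exon arrays, 1 array a sample. The authors deposited log2 expression values per transcript cluster; the submitters' processing notes name Affymetrix Expression Console 1.2, RMA and the genome build mm8. Whether reporter and knockout arrays were normalized together is not given in the sources used here. There were 0 columns of other samples. Of 23332 clusters, 14996 had 1 gene symbol in the platform annotation, 1019 several and 7317 none; 14941 of the single symbols matched the RefSeq gene table and 0 were updated. The cluster with the highest mean was kept for the 135 genes with more than 1, which left 14860 genes. The number of arrays limits the precision.

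Values were fitted with limma 3.58.1 in R 4.3.3, all 21 arrays in 1 linear model with terms for group and study and the empirical Bayes step. P-values were adjusted by Benjamini-Hochberg over the 14860 genes in each of 6 contrasts and called at 0.05. The step was tested on simulated data. Genes were named as a panel of known carriers, all lactate and nucleoside carriers, the 10 highest and 10 lowest calls of a contrast and the 4 smallest p-values of a substrate group; genes outside this were named for counts of 5 or fewer, after their values were seen. The members, the substrate groups, the transport partners and the cell type markers were chosen with earlier results of these data known. Alternatives were no study term, a replicate block, quantile normalization, centring on medians, a filter on dim genes, another variance prior, all clusters, the mean of a gene's clusters, fewer arrays in the fit, a 2-fold minimum, each study alone, without arrays of narrow range and without each array in turn. Slc25a5, Slc2a9, Slc2a13 and Slc29a4 were not analysed here, and Slc28a2 and Slc1a2 were measured by clusters shared with another gene. The main fit has no term for the replicate number, and pairs enter only through the alternative with a replicate block. Deviations of same-numbered arrays from their group means correlated by more than 0.1 in all pairs of a TGFB fraction with untreated reporter cells. The values were 0.147 to 0.512 in hCD2-positive and 0.117 to 0.387 in hCD2-negative cells. The own number was the best match for 1 of 5 and 0 of 5 arrays, so that pairs are not shown. The labels tie the numbers to the study alone. The block also covers the 2 fractions against each other, where the correlations were 0.0977 to 0.800 and 4 of 5 arrays matched their own number best. It covers the knockout too, where they were -0.182 to 0.580 and 2 of 3 did.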

Additional observations from a re-analysis of the deposited data

Results flagged for a closer look

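In groups of 5 arrays, a value was set apart where its gap to the nearest of the others was large against the whole range of the group, by Dixon's criterion. Of 198 groups of the named genes, 17 met it, and chance gives about 1 in 20. Of the 17, 12 lay on hCD2-positive replicate 3, the array with the narrowest range.

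On hCD2-positive replicate 3, the glucose carrier Slc2a3 had 7.68, against 8.84 or more on the others of its group. The amino acid carriers Slc38a1 (8.01), Slc38a2 (8.68), Slc38a10 (7.44), Slc43a2 (7.35) and the taurine carrier Slc6a6 (7.81) were the lowest of their groups there. So were the zinc carriers Slc39a6 (6.56), Slc39a7 (6.20) and Slc30a9 (6.74), and also Slc16a6 (6.04) and Slc9a7 (5.43). The nucleoside carrier Slc28a3 was the highest on that array, at 5.48, against 4.74 to 4.85 on the others.

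On other arrays, Slc16a6 had 6.84 on hCD2-negative replicate 3, the lowest of its group. Slc16a10 had 5.97 on hCD2-negative replicate 5, the highest. Slc5a8 had 5.29 on untreated reporter replicate 4, against 5.38 on each of the others. Slc3a2 had 11.62 on the same array, the highest. Slc35d1 had 6.37 on untreated reporter replicate 5, the lowest.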

How the results depend on the processing

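With quantile normalization, the counts of transporter genes called were 70 in hCD2-positive cells, 3 between the fractions and 43 in the knockout, against 43, 0 and 9. With arrays centred on their medians they were 113 in hCD2-negative cells (59 otherwise; 68 higher and 45 lower, 35.8% of the 316, against 23.3% of all genes) and 17 in the knockout (5.38%, against 4.34% of all genes). Without the narrow reporter arrays they were 31 in hCD2-negative cells and 19 in the knockout. With a 2-fold minimum they were 16 in hCD2-positive and 18 in hCD2-negative cells, against 744 and 1076 of all 14860 genes. Study 1 alone gave 12 and 11, and study 2 alone 2, 3 and, in the knockout, 4, with fewer arrays. The knockout count was 4 with no study term and 5 with all clusters tested. Counts over all genes are not given for the studies alone, for these 2 settings or for the fits below that each lacked 1 array. Those numbers show how the count of calls moves and not whether the transporter genes exceed the share of all genes. With the replicate number as a block the counts were 49 in hCD2-positive cells, 74 in hCD2-negative cells and 15 in the knockout. These were 15.5%, 23.4% and 4.75% of the 316, against 13.3%, 22.8% and 3.47% of all genes. Under the block, calls of named genes changed for Slc2a8 and Slc6a20b in hCD2-positive cells, for Slc38a2, Slc6a19 and Slc25a23 in hCD2-negative cells and for Slc25a23, Slc25a24, Slc25a27 and Slc41a2 in the knockout, and no other did. Between the fractions 4 of 5 arrays, and in the knockout 2 of 3, correlated best with their own number. Against untreated reporter cells 1 of 5 hCD2-positive and 0 of 5 hCD2-negative arrays did. The cause of these shifts was not tested. Genes whose arrays did not overlap, alternatives chosen after seeing the data, numbered 61 in hCD2-negative cells, 3 between the fractions and 94 in the knockout with quantile normalization, and 64 in hCD2-negative cells and 30 between the fractions without the narrow arrays. The 61 were 40 higher and 21 lower of 316, against 907 and 869 of all 14860 genes. The 94 were 52 and 42, against 2153 and 2085, and the 3 were 1 and 2, against 134 and 82. Without the narrow arrays the TGFB groups are smaller, which makes separation easier. No count over all genes is given there, so the 64 and 30 show neither an excess nor the lack of one. Fits that each lacked 1 array gave 34 to 49 in hCD2-positive cells, 42 to 86 in hCD2-negative cells, 0 to 1 between the fractions, 1 to 16 in the knockout, 0 to 0 for the hCD2-positive minus knockout response and 0 to 1 for the hCD2-negative one. The 86, the 16 and the 1 between the fractions came without hCD2-positive replicate 3, and the 1 for the response without knockout untreated replicate 3. Of 264 named results, 49 changed sign on leaving out some 1 array, and 0 of these were calls. Slc29a1 in hCD2-negative cells changed sign and became a call with quantile normalization, at 0.50.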

Other observations

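Several Slc names share a transcript cluster with another gene, and these 11 clusters were left out of the counts above. The cluster annotated to both Mrps6 and Slc5a3, the second of which encodes an inositol carrier, had a log2 fold change of -0.66 in hCD2-positive cells (adjusted p = 0.0844 in limma) and -0.74 in hCD2-negative cells (adjusted p = 0.0377). The cluster annotated to both Slc10a4 and Slc10a4l had 0.57 and 0.65 (adjusted p = 0.125 and 0.0602 in limma). The cluster annotated to both Slc28a2 and Slc28a2b, carriers that concentrate purine nucleosides, had -0.03 and -0.16, with no call. The cluster annotated to both Slc25a51 and 9130208E07Rik had -0.55 and -0.56 (adjusted p = 0.201 and 0.15 in limma). In the knockout none of the 11 was called, with adjusted p of 0.599 or more.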
